A study of Mus musculus with 14 samples.

Results

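The 10 genes described here encode 3 fibroblast growth factors (Fgf2, Fgf7, Fgf10), both insulin-like growth factors (Igf1, Igf2) and 5 IGF-binding proteins (Igfbp2, Igfbp3, Igfbp4, Igfbp5, Igfbp7). They are 10 of 20886 genes tested in bulk RNA, and all 10 passed the filter on low counts. The list was drawn up by name with earlier results of these data known, and Fgf7, Fgf10 and Igfbp2 were chosen by their level in 1 group of smooth muscle nuclei, so that their levels in that group are a description. The samples were the muscle wall (muscularis) of mouse colon and jejunum, all from C57BL/6 mice. The 12 bulk libraries formed 4 groups of 3: colon and jejunum with the genotype label Carmn iKO (here KO), and colon and jejunum with the label WT mTmG (here WT); mTmG is a fluorescent reporter allele. Carmn is a long non-coding RNA of smooth muscle. 1 further KO and 1 further WT colon sample gave nuclei, with RNA and open chromatin read in the same nuclei. The labels give neither the age of the mice nor the agent or Cre line behind the iKO, nor whether a library came from 1 mouse or a pool, so that p-values measure the spread between these samples, which may be technical. Libraries carry a tag (m1, t1, t4, t6 or t7) whose meaning the labels do not give.

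Fibroblast growth factors bind receptor tyrosine kinases together with heparan sulphate. Fgf7 and Fgf10 are mesenchymal ligands that signal mainly to epithelium through the epithelial form of Fgfr2, while Fgf2 also acts on mesenchymal cells and endothelium. Igf1 and Igf2 act through Igf1r, Igf2r clears Igf2, and IGF-binding proteins hold the ligands outside the cell until proteases such as Pappa release them. In gut muscle, Igf1 and its binding proteins are known as regulators of smooth muscle growth.

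Bulk libraries held 24254905 to 44315104 gene counts. The targeted gene went against the labels in bulk: Carmn stood at 304 to 718 CPM (gene counts scaled to a common library size, here adjusted by TMM) in the KO colon libraries and at 171 to 351 CPM in the WT colon libraries. In jejunum it stood at 817 to 996 CPM in the KO libraries and at 206 to 326 CPM in the WT libraries. The deleted part of Carmn is not given in the labels, and whether the counted exons lie outside it was not tested. Genotype names below are therefore those of the labels only, written KO-labelled and WT-labelled. In nuclei, Carmn stood at 2.22 UMIs per 10000 UMIs in the KO-labelled library and at 6.60 in the WT-labelled library. All 10 smooth muscle markers, and all fibroblast and macrophage markers listed, were counted in all 12 bulk libraries. Fewer cells of a type and less RNA per cell cannot be told apart in bulk.

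A pair of libraries stood apart, KO-labelled colon t4 and KO-labelled jejunum m1. KO-labelled colon t4 lay at -114 on the first principal component, the other colon libraries between -62.8 and 1.45, and its 8 fibroblast markers summed to 13536 CPM against 2686 to 6670 CPM in the other colon libraries. KO-labelled jejunum m1 held RNA of posterior Hox genes, picked after their values were seen. Its Hoxd13 level was 14.5 CPM, against 0.00 to 0.22 CPM in the other jejunum libraries and 74.1 to 149 CPM in colon. Hoxc6, which was low in colon, stood at 39.0 CPM in it, above the other jejunum libraries. Its smooth muscle markers summed to 89964 CPM, against 38810 to 45883 CPM in the other jejunum libraries. Its fibroblast markers (7889.5 CPM) and macrophage markers (1084 CPM) were also above all other jejunum libraries. Values that rest on either library are given with and without it, and the part of tissue content in them was not tested.

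The windows before the starts of 5 members are shown because the data bear on them: Fgf7, Fgf10 and Igfbp2 were high in WT-labelled colon and in smooth muscle nuclei, and Igfbp4 and Igfbp7 had an open-chromatin peak at their start in both nuclei libraries. Each is the RefSeq sequence of the 250 bases before the start (build GRCm38.p6), on the strand of the gene, 5′ to 3′, with matches to 4 motifs in capitals.
Fgf7, chr2:126034408-126034657, plus strand: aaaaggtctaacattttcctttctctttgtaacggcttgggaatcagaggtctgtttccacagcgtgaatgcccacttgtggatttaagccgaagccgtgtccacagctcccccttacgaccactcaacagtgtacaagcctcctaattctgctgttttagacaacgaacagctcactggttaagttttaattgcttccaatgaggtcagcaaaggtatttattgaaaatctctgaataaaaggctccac
Fgf10, chr13:118714449-118714698, plus strand: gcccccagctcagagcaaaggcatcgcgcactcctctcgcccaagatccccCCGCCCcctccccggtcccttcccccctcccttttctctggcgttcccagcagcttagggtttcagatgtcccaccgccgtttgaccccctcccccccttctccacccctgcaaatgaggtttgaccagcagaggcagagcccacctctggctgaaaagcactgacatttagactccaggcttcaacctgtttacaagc
Igfbp2, chr1:72824230-72824479, plus strand: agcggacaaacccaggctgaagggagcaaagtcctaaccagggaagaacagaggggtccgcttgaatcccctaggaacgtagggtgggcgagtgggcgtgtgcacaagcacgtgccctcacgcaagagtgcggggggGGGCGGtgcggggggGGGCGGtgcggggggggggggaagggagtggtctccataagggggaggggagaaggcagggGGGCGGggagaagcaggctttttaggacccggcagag
Igfbp4, chr11:99040994-99041243, plus strand: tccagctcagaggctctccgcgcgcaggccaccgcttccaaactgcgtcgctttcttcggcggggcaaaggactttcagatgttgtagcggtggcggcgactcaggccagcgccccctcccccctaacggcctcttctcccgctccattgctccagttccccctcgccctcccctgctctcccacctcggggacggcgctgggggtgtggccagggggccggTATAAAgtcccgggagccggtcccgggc
Igfbp7, chr5:77408046-77408295, minus strand: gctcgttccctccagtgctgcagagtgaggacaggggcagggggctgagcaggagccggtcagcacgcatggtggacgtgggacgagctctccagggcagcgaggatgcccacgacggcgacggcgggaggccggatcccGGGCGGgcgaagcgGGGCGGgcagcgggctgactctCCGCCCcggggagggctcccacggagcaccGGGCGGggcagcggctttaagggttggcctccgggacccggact
The motifs, searched on both strands, were the TATA box TATAAA, the GC box GGGCGG, the AP-1 site TGANTCA and the CArG box of serum response factor. No matches of different motifs overlapped in these 5 windows. Over 32851 RefSeq windows of this length, 12.4% held the TATA box, 32.7% the GC box, 6.75% the AP-1 site and 1.47% the CArG box. The Igfbp2 window held 3 GC boxes, the Igfbp7 window 4 and the Fgf10 window 1, and the Igfbp4 window held 1 TATA box that began 28 bases before the start. None of the 4 motifs was in the Fgf7 window. Its GC content was 43.6%, against 61.2% for Fgf10, 67.2% for Igfbp2, 69.2% for Igfbp4, 74.0% for Igfbp7 and a median of 52.4% over all windows. No motif of the 4 was thus in the windows of all 3 genes chosen for 1 group of nuclei. Igfbp2 and Igfbp5 lie next to each other on chromosome 1, at 72824503 to 72852474 on the plus strand and 72857932 to 72874884 on the minus strand (GENCODE, GRCm38). The RefSeq starts of Igfbp2 and Fgf10 shown here differ from the first base of the GENCODE genes, and a second RefSeq start of Igfbp2 lies downstream.

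Levels of the members differed widely. Per kilobase of exon, the order of mean levels in WT-labelled colon was Igfbp7 (283 ± 59.9 CPM per kb, SD, n = 3), Igfbp2 (143 ± 37.3), Igfbp4 (89.6 ± 17.2), Igfbp5 (81.5 ± 16.8), Igfbp3 (5.33 ± 1.24), Fgf7 (4.90 ± 0.53), Igf1 (3.83 ± 0.09), Fgf10 (3.77 ± 0.71), Igf2 (2.12 ± 0.36) and Fgf2 (1.36 ± 0.34). The means of Igfbp4 and Igfbp5, of Igfbp3 and Fgf7, and of Igf1 and Fgf10 lay within their spread. Igfbp7, Igfbp2, Igfbp4 and Igfbp5 were thus far above all ligands. In WT-labelled jejunum the same 3 of them led, Igfbp7 (380 ± 51.9 CPM per kb), Igfbp4 (228 ± 29.7) and Igfbp5 (170 ± 30.6), but Igfbp2 was at 4.52 ± 0.65. There the ligands followed the order Igf2 (6.61 ± 1.66), Igf1 (3.97 ± 1.46), Fgf2 (1.84 ± 0.25), Fgf7 (0.63 ± 0.08) and Fgf10 (0.11 ± 0.10). Exons of 4 members overlap genes on the other strand: Fgf2 with Nudt6, Fgf10 with Gm16263, Igf2 with Igf2os and Igfbp7 with Polr2b. No source used here gives the strand setting of the counting, so reads of these pairs may not be separated. Exons of Fgf2 and Igf2 also overlap genes on the same strand, Gm43439 and Gm49394, which a strand setting would not separate.

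**Figure D1:**
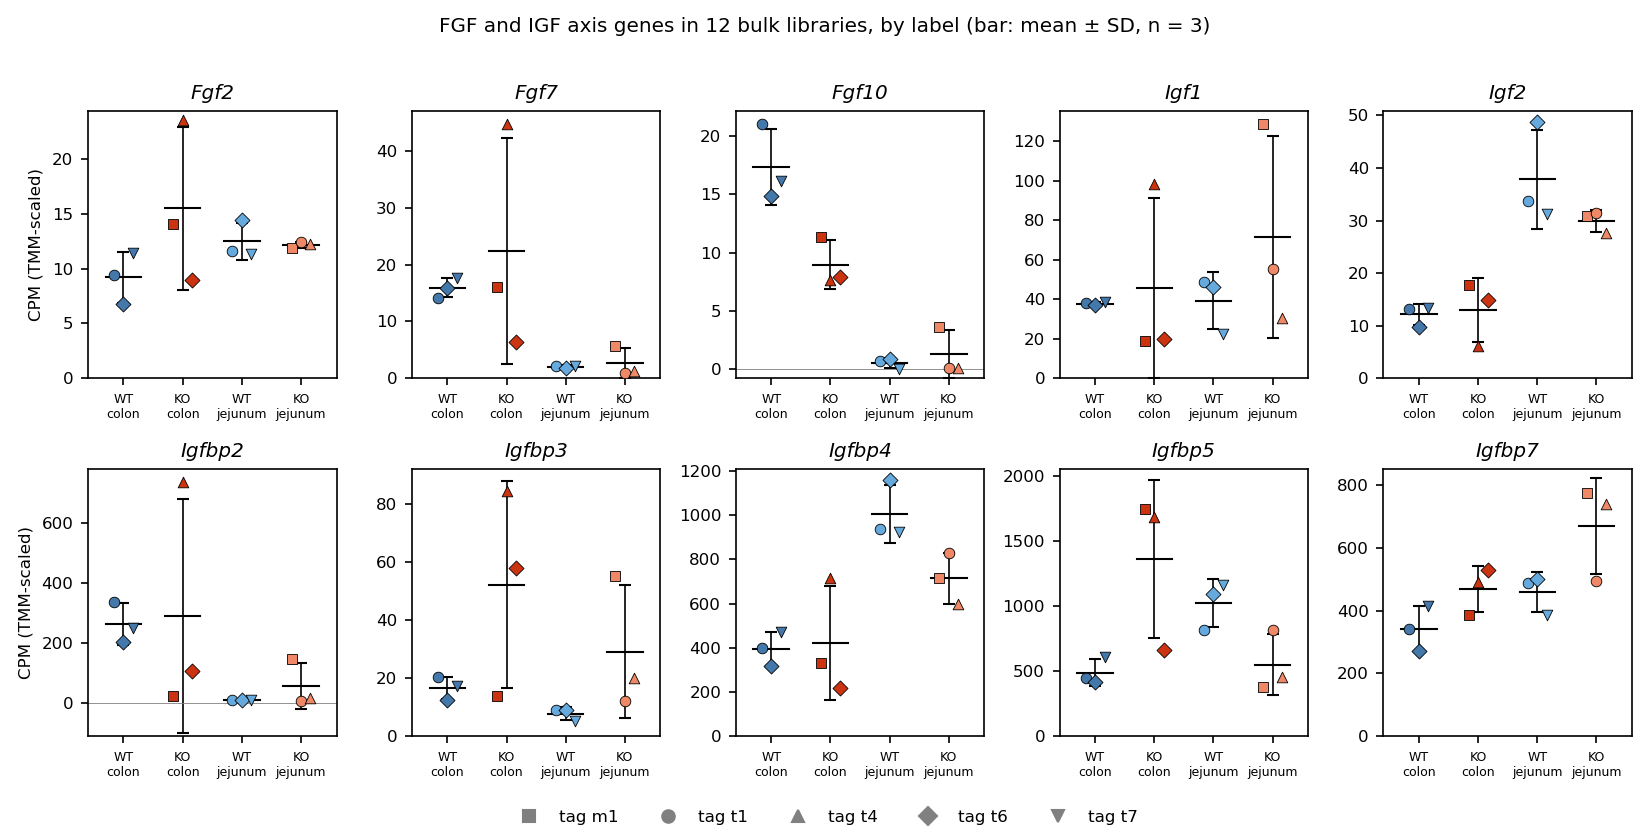
Level of each member (CPM on TMM-scaled library sizes, vertical axis, own scale per gene) in each of the 12 bulk libraries, grouped by label; symbols give the library tag, and bars the mean ± SD of 3. Fgf7, Fgf10 and Igfbp2 were high in WT-labelled colon, and KO-labelled colon t4 (upward triangle) was highest of its group for Fgf2, Fgf7, Igf1, Igfbp2, Igfbp3 and Igfbp4.

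The clearest pattern was between WT-labelled colon and WT-labelled jejunum, which asks how the 2 gut segments differ. Groups did not overlap for 7 of 10 members, against 22.9% of all genes: Fgf7, Fgf10, Igfbp2 and Igfbp3 were higher in colon, Igf2, Igfbp4 and Igfbp5 in jejunum. Summed markers of other cells differed between the segments in both directions. Mesothelium markers stood at 345 to 800 CPM in WT-labelled colon and 863 to 1755 CPM in WT-labelled jejunum. Vascular mural markers stood at 1229 to 1721 CPM and 4100 to 5501 CPM, and interstitial cell of Cajal markers at 504 to 615 CPM and 901 to 1056 CPM. Lymphatic endothelium markers were higher in colon, at 346 to 488 CPM against 81.9 to 205 CPM. So were enteric neuron markers (676 to 1139 CPM against 504 to 614 CPM) and enteric glia markers (217 to 284 CPM against 150 to 160 CPM). Smooth muscle markers were higher in colon, at 48089 to 70077 CPM against 38810 to 42667 CPM, and the part of these markers in the result was not tested. The list had these values in view when it was drawn up. By edgeR's quasi-likelihood test with Benjamini-Hochberg adjustment over 20886 genes, 1 of 10 members passed an adjusted p of 0.05, Igf2, against 1.56% of all genes. The median log2 fold change of the members was -0.24, against 0.04 over all genes.

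Igf2, the fetal growth factor ligand, stood at 13.3, 9.75 and 13.4 CPM in WT-labelled colon and at 33.7, 48.7 and 31.2 CPM in WT-labelled jejunum (libraries t1, t6 and t7 in each). Every jejunum library was above every colon library. The log2 difference, colon minus jejunum, was -1.64 ± 0.33 (SE; edgeR adjusted p = 0.0352). Leaving out any 1 of the 6 WT-labelled libraries lifted the adjusted p to between 0.0577 and 0.115. KO-labelled libraries lay in the same order, at 6.18 to 17.8 CPM in colon and 27.6 to 31.5 CPM in jejunum.

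Fgf7, the keratinocyte growth factor, stood at 14.2, 15.965 and 17.6 CPM in WT-labelled colon and at 2.21, 1.75 and 2.16 CPM in WT-labelled jejunum. Its level was 7.81 times higher in colon, with a log2 difference of 2.96 ± 0.77 that missed the threshold (edgeR adjusted p = 0.0970). An alternative fit, chosen after seeing the data, left out both KO-labelled colon t4 and KO-labelled jejunum m1. In it 5 of 10 members passed the threshold, against 4.92% of all genes. Neither library is in the WT-labelled groups compared, so leaving them out acts mainly on the estimate of spread that all groups share. In that fit the difference of Fgf7 (2.91 ± 0.33) passed with an adjusted p of 0.000947. Fgf10, a ligand of Fgfr2 in epithelium, stood at 21.0, 14.9 and 16.1 CPM in colon and at 0.663, 0.845 and 0.00 CPM in jejunum, where the counts were 18, 29 and 0. Its log2 difference was 5.12 ± 1.36 (edgeR adjusted p = 0.107), and without both libraries it was 5.07 ± 0.90 (adjusted p = 0.0181).

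Igfbp2 stood at 338, 201 and 251 CPM in WT-labelled colon and at 9.72, 7.60 and 7.70 CPM in WT-labelled jejunum. The mean was 31.6 times higher in colon, the log2 difference 4.98 ± 1.41 (edgeR adjusted p = 0.131), and 4.93 ± 0.66 without both libraries (adjusted p = 0.00729). The WT-labelled colon libraries thus lay far above the WT-labelled jejunum libraries for Fgf7, Fgf10 and Igfbp2. Between the fits the differences moved little and their SE was smaller in the second. Both libraries left out are KO-labelled and enter this comparison mainly through the shared spread, so the second fit is no separate support. Igfbp4, which blocks IGF action until it is cut by Pappa, went the other way, at 397, 319 and 471 CPM in colon and 935, 1158 and 925 CPM in jejunum (log2 difference -1.35 ± 0.36, edgeR adjusted p = 0.106; without both libraries -1.403 ± 0.222, adjusted p = 0.00625). Igfbp5 stood at 444, 419 and 605 CPM in colon and 812, 1091 and 1160 CPM in jejunum (-1.06 ± 0.38, adjusted p = 0.237). Igfbp3 stood at 20.2, 12.6 and 17.2 CPM in colon and 9.21, 9.06 and 5.25 CPM in jejunum (1.09 ± 0.64, adjusted p = 0.530). Fgf2 (-0.44 ± 0.31), Igf1 (-0.05 ± 0.66) and Igfbp7 (-0.42 ± 0.24) overlapped between the segments.

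The comparison of KO-labelled with WT-labelled colon asks what goes with the genotype label in this segment. None of the 10 members passed the threshold, where 0.388% of all genes did (edgeR quasi-likelihood test, Benjamini-Hochberg adjustment). At an unadjusted p under 0.05 there were 3 members, all higher (Fgf2, Igfbp3, Igfbp5), against 14.5% of all genes, and by limma voom none passed the threshold, against 0.455% of all genes, and by DESeq2 1 did, Igfbp5, against 4.6%. Groups did not overlap for 2 of 10 members, Igfbp5 and Fgf10, against 19.2% of all genes. The median log2 fold change of the members was 0.36, with 9 fitted values above 0, and that of all genes 0.00. Without KO-labelled colon t4, 5 fitted values were above 0 and the median was -0.09, against -0.02 for all genes.

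Igfbp5, a binding protein that sits in extracellular matrix, had the smallest p. It stood at 1743, 1681 and 664 CPM in KO-labelled colon (m1, t4, t6) and at 444, 419 and 605 CPM in WT-labelled colon. The lowest KO-labelled library was only slightly above the highest WT-labelled one. The mean was 1363 ± 606 CPM against 490 ± 101 CPM (SD, n = 3 each), the log2 fold change 1.48 ± 0.39 and the edgeR adjusted p 0.134. DESeq2 called it, at an adjusted p of 0.00843. Leaving out 1 library at a time, the log2 fold change stayed between 1.26 and 1.83 and the edgeR adjusted p between 0.0999 and 0.370.

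Igfbp3, the main carrier of IGFs in blood, stood at 14.0, 84.5 and 58.0 CPM in KO-labelled colon and at 20.2, 12.6 and 17.2 CPM in WT-labelled colon. It was high in 2 of 3 KO-labelled libraries and within the WT-labelled range in m1 (log2 fold change 1.65 ± 0.65, edgeR adjusted p = 0.274). Without KO-labelled colon t4 the value was 1.11 ± 0.68. Fgf2 stood at 14.0, 23.5 and 8.91 CPM against 9.42, 6.79 and 11.4 CPM, a log2 fold change of 0.75 ± 0.31 (edgeR adjusted p = 0.306) that was 0.32 ± 0.27 without KO-labelled colon t4. Fgf10 was lower in every KO-labelled library, at 11.4, 7.67 and 7.90 CPM against 21.0, 14.9 and 16.1 CPM, with a log2 fold change of -0.95 ± 1.12 (edgeR adjusted p = 0.764). Its wide error, from a spread estimated over all 4 groups and so also over jejunum, sat beside a mean of 8.97 ± 2.06 CPM against 17.3 ± 3.27 CPM. The 10 smooth muscle markers moved with it, with sums of 33700 to 45452 CPM in KO-labelled colon and 48089 to 70077 CPM in WT-labelled colon that do not overlap, and their part in the result was not tested.

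Igfbp2, Fgf7, Igf1 and Igfbp4 changed sign in colon without KO-labelled colon t4. Igfbp2 stood at 22.4, 740 and 106 CPM there, with 2 libraries below and 1 above the WT-labelled range of 201 to 338 CPM. Its log2 fold change of 0.14 ± 1.18 turned to -2.03 ± 1.23 without KO-labelled colon t4. In the same way Fgf7 (6.38 to 44.8 CPM against 14.2 to 17.6 CPM) turned from 0.49 ± 0.71 to -0.51 ± 0.66, Igf1 (18.8 to 98.2 CPM against 36.9 to 38.7 CPM) from 0.27 ± 0.66 to -0.96 ± 0.52 and Igfbp4 (220 to 713 CPM against 319 to 471 CPM) from 0.09 ± 0.36 to -0.52 ± 0.26. In the edgeR fits the sign of these 4 thus turned with 1 library, the one with the most fibroblast marker RNA, whose part in the result was not tested. By limma voom with all libraries, Igf1, Igfbp2 and Igfbp4 were also below 0, so their sign differed between tools too. None of these 4 passed the threshold either way. Igf2 (6.18 to 17.8 CPM against 9.75 to 13.4 CPM, log2 fold change 0.10 ± 0.33) overlapped, as did Igfbp7 (386 to 529 CPM against 270 to 415 CPM, 0.45 ± 0.24).

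**Figure D2:**
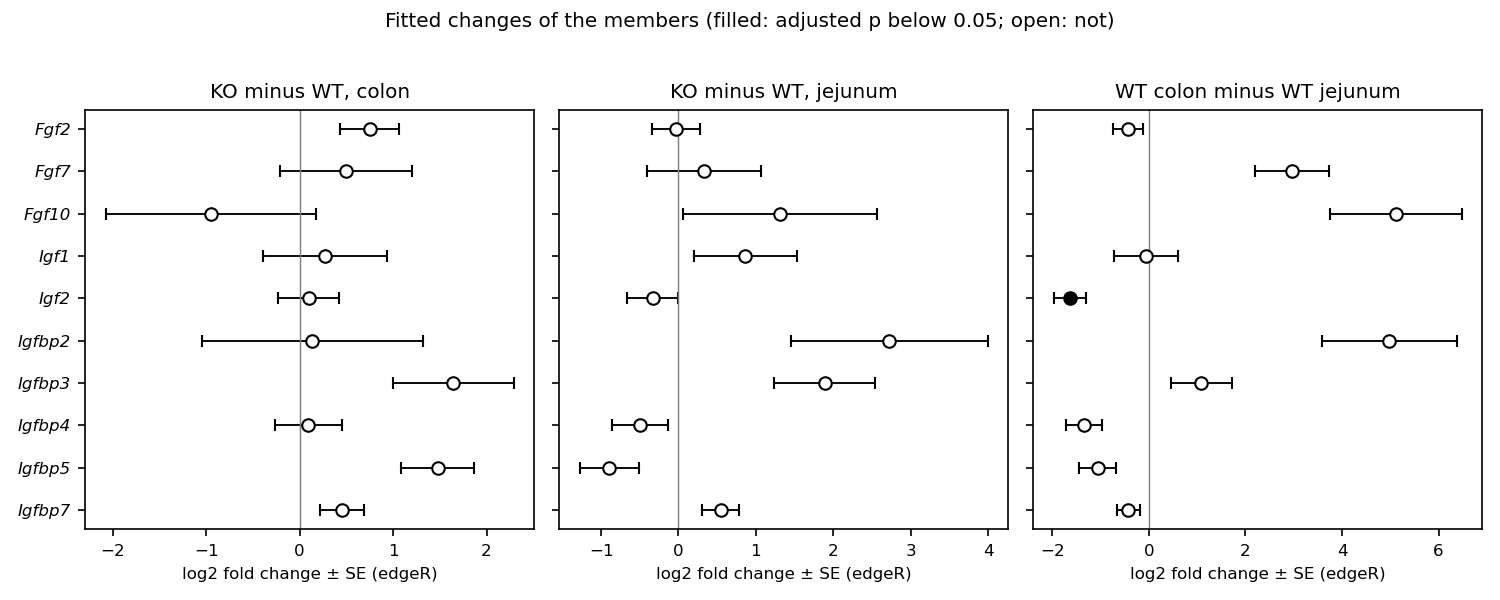
Fitted log2 fold change (horizontal axis) ± SE of each member in 3 comparisons by edgeR, with n = 3 libraries per group; a filled symbol marks an adjusted p below 0.05. Igf2 in the comparison of the segments is the single filled symbol, while Fgf7, Fgf10 and Igfbp2 have the largest differences, at 2.96, 5.12 and 4.98.

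In jejunum, again none of the 10 members passed the threshold between KO-labelled and WT-labelled libraries, where 0.215% of all genes did (edgeR, as above). At an unadjusted p under 0.05 there were 3 members, Igfbp3 and Igfbp7 higher and Igfbp5 lower, against 13.2% of all genes, and neither DESeq2 (3.85% of all genes) nor limma voom (0.364%) called any. Groups did not overlap for Igfbp3 and Igfbp4, 2 of 10 members, against 22.2% of all genes. The median log2 fold change was 0.43 for the members and 0.02 for all genes, and without KO-labelled jejunum m1 it was -0.21 and -0.03.

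Igfbp3 stood at 55.2, 12.3 and 19.965 CPM in KO-labelled jejunum (m1, t1, t4) and at 9.21, 9.06 and 5.25 CPM in WT-labelled jejunum, so that every KO-labelled library was higher. The log2 fold change was 1.89 ± 0.65 (edgeR adjusted p = 0.255), and 1.02 ± 0.59 without KO-labelled jejunum m1. Igfbp3 was also the member with the highest fitted log2 fold change in colon, and neither value passed the threshold. Igfbp4 stood at 714, 829 and 600 CPM in KO-labelled jejunum and 935, 1158 and 925 CPM in WT-labelled jejunum. All 3 KO-labelled libraries were lower (log2 fold change -0.49 ± 0.36, edgeR adjusted p = 0.589).

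Igfbp5 stood at 377, 815 and 458 CPM in KO-labelled jejunum and at 812, 1091 and 1160 CPM in WT-labelled jejunum, with an overlap of 1 library (log2 fold change -0.89 ± 0.38, edgeR adjusted p = 0.351). Its fitted direction was thus opposite to that in colon. The difference between the 2 changes was 2.37 ± 0.55 on the log2 scale, with an unadjusted p of 0.00105 and an edgeR adjusted p of 0.911, while DESeq2 gave an adjusted p of 0.0227. No gene passed in this comparison by edgeR (0.0% of all genes), with 869 genes at an unadjusted p under 0.05, 37 genes called by DESeq2 (0.177%) and 0 by limma voom. Igfbp5 was also the only member at an unadjusted p under 0.05 there. Igfbp7, a secreted protein with weak IGF affinity, stood at 776, 494 and 739 CPM in KO-labelled jejunum and at 488, 502 and 387 CPM in WT-labelled jejunum (0.55 ± 0.24, edgeR adjusted p = 0.356).

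Of the other members in jejunum, the ones high in WT-labelled colon turned on KO-labelled jejunum m1, the library with posterior Hox RNA and the highest smooth muscle marker sum of the jejunum libraries, whose part in the result was not tested. Igfbp2 stood at 145 CPM in it, at 5.82 and 14.4 CPM in the other KO-labelled libraries and at 7.60 to 9.72 CPM in the WT-labelled ones. The log2 fold change of Igfbp2 was 2.72 ± 1.27 with it (edgeR adjusted p = 0.394) and 0.25 ± 1.07 without it. Fgf10 was at 3.65 CPM in it and at 0.14 CPM in both others, with a change of 1.31 ± 1.25 that turned to -1.86 ± 1.04 without it, on counts of 0 to 72. Fgf7 was at 5.69 CPM in it and at 0.93 and 1.22 CPM in the others, with a change of 0.32 ± 0.74 that turned to -0.94 ± 0.65. Igf1 stood at 129 CPM in it, at 55.3 and 30.7 CPM in the others and at 22.7 to 49.0 CPM in WT-labelled jejunum (0.86 ± 0.67 with it, 0.11 ± 0.68 without it). Igf2 (27.6 to 31.5 CPM against 31.2 to 48.7 CPM, -0.34 ± 0.32) and Fgf2 (11.9 to 12.4 CPM against 11.3 to 14.5 CPM, -0.03 ± 0.31) overlapped between the labels.

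Across the wider pathway, 58 of 67 other FGF and IGF pathway genes were tested. None passed the threshold between KO-labelled and WT-labelled libraries in either segment (edgeR), with 6 higher and 5 lower at an unadjusted p under 0.05 in colon and 8 higher and 8 lower in jejunum, against 14.5% and 13.2% of all genes in either direction. Without KO-labelled colon t4 these counts were 4 and 2 in colon, against 14.7% of all genes in that fit. Without KO-labelled jejunum m1 they were 7 and 3 in jejunum, against 9.47% of all genes in that fit. With all libraries, the median log2 fold changes of the pathway genes were 0.16 in colon and 0.14 in jejunum. Sdc2, a heparan sulphate proteoglycan that binds FGFs, had the smallest p in both segments. It stood at 76.6, 47.2 and 74.1 CPM in KO-labelled colon and at 119, 114 and 140 CPM in WT-labelled colon (log2 fold change -0.91 ± 0.19, edgeR adjusted p = 0.0673). In jejunum it stood at 67.5, 67.4 and 67.0 CPM against 118, 102 and 112 CPM (-0.72 ± 0.18, adjusted p = 0.140). Every KO-labelled library was thus below every WT-labelled library of its segment.

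Pappa, the protease that cuts Igfbp4, stood at 23.967, 52.3 and 47.0 CPM in KO-labelled colon and 17.8, 12.5 and 14.9 CPM in WT-labelled colon (1.45 ± 0.32, edgeR adjusted p = 0.0855). In jejunum it stood at 36.2, 34.8 and 57.2 CPM against 15.4, 15.965 and 24.003 CPM (1.21 ± 0.31, adjusted p = 0.142). Its groups did not overlap in either segment. Igf2r stood at 483, 385 and 406 CPM in KO-labelled colon against 276, 216 and 310 CPM (0.67 ± 0.19, edgeR adjusted p = 0.150). H19, the imprinted neighbour of Igf2, was at 57.5 CPM in KO-labelled jejunum m1, at 2.20 and 5.39 CPM in the other KO-labelled libraries and at 0.32 to 1.47 CPM in WT-labelled jejunum (4.41 ± 1.17, edgeR adjusted p = 0.159; without m1 1.87 ± 0.73, adjusted p = 0.428). All 12 listed feedback inhibitors, targets and adaptors (Frs2, Frs3) of FGF signalling had a fitted value above 0 in colon. Their median was 0.26, against 0.00 over all genes, and none reached an unadjusted p of 0.05. Without KO-labelled colon t4, 11 of 12 were above 0. In jejunum 8 were above 0 and 4 below, with a median of 0.11.

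Between the WT-labelled segments, 2 of the 58 pathway genes passed the threshold, against 1.56% of all genes. Stc2, an inhibitor of Pappa, was higher in colon at 19.2, 26.4 and 26.6 CPM against 3.90, 5.51 and 3.65 CPM (log2 difference 2.47 ± 0.41, edgeR adjusted p = 0.0161). Fgf16 was higher in jejunum at 9.98, 3.61 and 8.55 CPM against 0.25, 0.77 and 1.4 CPM (-3.20 ± 0.62, adjusted p = 0.0289). Libraries of the 2 segments did not overlap for either gene.

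In the colon nuclei, Igfbp2, Fgf10 and Fgf7 had most of their UMIs in smooth muscle-like nuclei and the other 7 members had most of theirs outside them. Smooth muscle-like nuclei held 3780040 of the 13762525 UMIs of all genes. Per 10000 UMIs, Igf1 was higher in them (0.80, interval 0.71 to 0.89) than in all other nuclei (0.44, 0.40 to 0.49). In the WT-labelled library alone these intervals overlapped (0.13 to 0.24 and 0.10 to 0.17). After filtering, 2566 WT-labelled and 1566 KO-labelled nuclei were kept (median 1668 and 1959 UMIs), with 11 barcodes shared by both libraries, and they formed 24 clusters made without the 10 members. Clusters were named by markers, such as "smooth muscle-like", and 5 clusters with 865 WT-labelled and 428 KO-labelled nuclei had that name. With 1 library per genotype there is no test, and intervals are exact 95% Poisson intervals that cover counting error only. The 492 epithelium-like nuclei, which should lack Fgf7 and Fgf10, give the background of free RNA: 0.044 and 0.087 UMIs per 10000 UMIs for these 2 genes. Igfbp2 there was at 0.43 (0.22 to 0.75) in the KO-labelled library, from 12 UMIs in 4 nuclei, with 0 UMIs in the WT-labelled one. Levels are for both libraries pooled where no library is named.

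Smooth muscle-like nuclei held 75.7% of all Igfbp2 UMIs, 57.7% of those of Fgf10 and 55.6% of those of Fgf7. Cluster 4, led by Igfbp2, Alkal1, Fn1 and Postn, was the cluster of the label: it held Igfbp2 at 2.56 per 10000 (interval 2.21 to 2.94), Fgf7 at 1.36 (1.11 to 1.66) and Fgf10 at 0.96 (0.75 to 1.21). These levels pool both libraries. In the WT-labelled library alone Igfbp2 was at 0.56 in cluster 4, 0.70 in cluster 7 and 0.78 in cluster 11, with overlapping intervals, and in the KO-labelled library at 3.56, 0.85 and 0.99. Cluster 7, led by Hs3st4 and Grin3a, had Fgf7 at 1.06 (0.81 to 1.38) and Fgf10 at 1.25 (0.97 to 1.58), with intervals that overlap those of cluster 4, and Igfbp2 at 0.73 (0.52 to 1.0). Cluster 11, led by Ctla2a and Lrrc7, had Fgf10 at 0.89 and Igfbp2 at 0.93 but Fgf7 at 0.08. Cluster 0, led by Colec10 and Nek10, was lower for all 3, at 0.11 for Igfbp2, 0.20 for Fgf7 and 0.38 for Fgf10. Outside smooth muscle, Fgf7 stood at 0.85 (0.54 to 1.26) in Pdgfra fibroblast-like cluster 12, led by Cilp, Col14a1 and C7, and Fgf10 at 0.77 (0.45 to 1.24) in interstitial cell of Cajal-like nuclei. In the WT-labelled library alone Fgf7 was higher in cluster 12, at 2.12 (1.25 to 3.34), than in all smooth muscle-like nuclei, at 0.41 (0.33 to 0.51). The KO-labelled library had the other order, at 0.30 (0.11 to 0.66) and 0.73 (0.60 to 0.88).

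Igfbp2 in cluster 4 rested on few nuclei: 36 of 263 had a UMI, and 5 nuclei held 119 of the 191 UMIs. The mean over nuclei was 1.61 per 10000, against the pooled 2.56. With a minimum of 1000 UMIs the nuclei grouped otherwise, and the cluster that shared most with cluster 4 (49.0% of its nuclei) was at 0.49 while another cluster of 185 nuclei was at 2.33.

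Igf1 was high in cluster 12 (3.84, interval 3.15 to 4.63), P2ry1 PDGFRA-positive interstitial cell-like cluster 10 (3.56, 2.95 to 4.27) and smooth muscle-like cluster 11 (3.27, 2.87 to 3.71), 3 clusters whose intervals overlap. In the WT-labelled library macrophage-like nuclei were the highest, at 1.15, with clusters 10, 11 and 12 at 0.59 to 0.66. Over both libraries macrophage-like nuclei were at 0.64 and epithelium-like nuclei at 0.07. Igf2 had 5 UMIs in all 4132 nuclei, a level of 0.0036 per 10000 with an upper bound of 0.0085. It was thus barely detected in nuclei of colon, although its mean bulk level in WT-labelled colon (12.2 CPM) was above that of Fgf2 (9.20 CPM). Fgf2 had 812 UMIs in the same nuclei. Bulk and nuclei thus differed for Igf2, and the reason was not tested.

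The other binding proteins were highest outside muscle, with both libraries pooled. Igfbp7 stood at 26.5 in mesothelium-like cluster 15, 19.1 in blood endothelium-like and 11.3 in Pdgfra fibroblast-like nuclei, against 2.10 in smooth muscle-like nuclei, and only 15.4% of its UMIs were in the latter. Igfbp5 stood at 6.80 in mesothelium-like cluster 15 and 3.70 in lymphatic endothelium-like nuclei, against 0.35 in smooth muscle-like nuclei. Within smooth muscle, cluster 7 stood out for Igfbp5 at 1.12 (0.86 to 1.44), with 0.15 to 0.34 in the other 4 clusters. Igfbp4 was highest in cluster 13 (named mesothelium-like, but with the fibroblast gene Dcn and no mesothelium marker among its 10 leading genes) at 5.46 (4.32 to 6.81) and stood at 0.15 in smooth muscle-like nuclei. Igfbp3 was low in all, with 145 UMIs in total, and its highest levels were 0.79 (0.36 to 1.5) in blood endothelium-like nuclei and 0.71 (0.49 to 0.99) in cluster 15. Fgf2 stood at about the same level in cluster 15 (2.05), Pdgfra fibroblast-like nuclei (2.04) and enteric glia-like cluster 14 (1.93), and at 0.42 in smooth muscle-like nuclei. Cluster 15 held 103 KO-labelled and 3 WT-labelled nuclei, so that it may be that library and not a type. Among clusters with at least 20 WT-labelled nuclei, the highest level in the WT-labelled library was that of lymphatic endothelium-like nuclei for Igfbp5 (4.57) and of cluster 13 for Igfbp7 (14.99). The unnamed cluster 20 had a median of 13947 UMIs and mixed marker genes, and no member led in it.

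**Figure D3:**
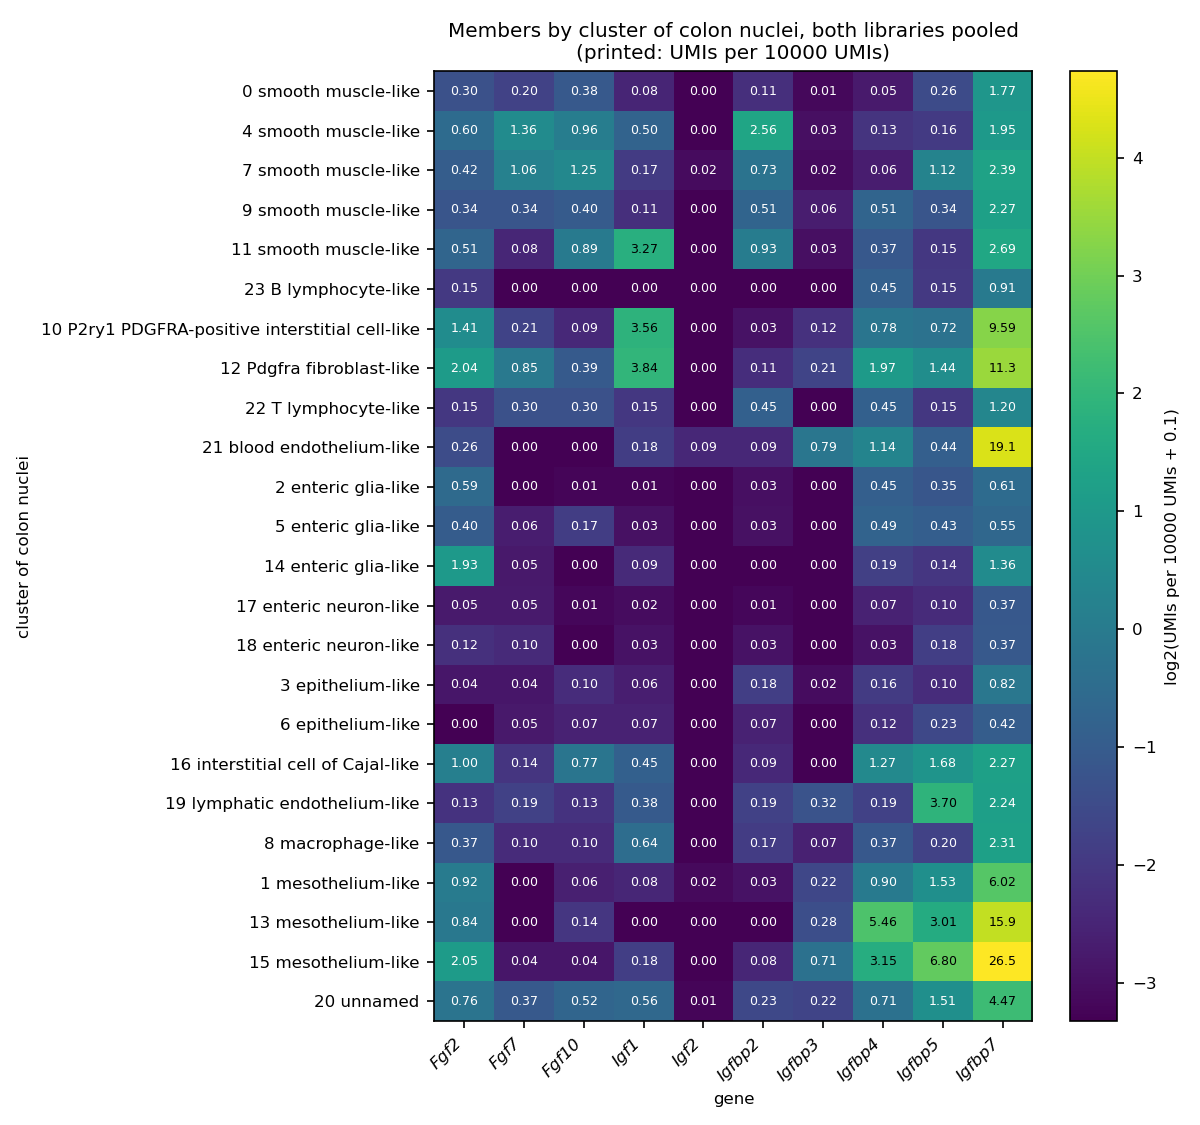
Level of each member (columns, UMIs per 10000 UMIs, printed in each field, colour on a log2 scale with 0.1 added) in the 24 clusters of colon nuclei (rows), both libraries pooled. With both libraries pooled, Igfbp2 is highest in cluster 4 at 2.56, Igf1 in clusters 12, 10 and 11, Igfbp4 in cluster 13, and Igfbp5 and Igfbp7 in cluster 15; in the WT-labelled library alone Igfbp2 was not highest in cluster 4.

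Receptors were spread over the same nuclei. Igf1r stood at 9.10 per 10000 in smooth muscle-like nuclei, 5.66 in enteric glia-like and 2.09 in epithelium-like nuclei. Fgfr2 stood at 4.87 in smooth muscle-like and 3.19 in epithelium-like nuclei, as counts per gene that do not tell its epithelial form from others. Fgfr1 was highest in P2ry1 PDGFRA-positive interstitial cell-like nuclei, at 5.42. It stood at 3.98 in Pdgfra fibroblast-like, 3.35 in enteric glia-like and 1.5 in smooth muscle-like nuclei. Pappa was also highest in P2ry1 PDGFRA-positive interstitial cell-like nuclei, at 3.86. It stood at 2.96 in Pdgfra fibroblast-like nuclei and at 0.18 in smooth muscle-like nuclei.

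Between the 2 nuclei libraries, some members differed within a cluster beyond their Poisson intervals. These intervals do not cover the spread between nuclei, and UMIs were clumped. With both libraries pooled, 5 nuclei held 100 of 242 Igf1 UMIs and 5 held 32 of 66 Fgf10 UMIs in cluster 11. In cluster 4, 5 nuclei held 50 of 102 Fgf7 UMIs. Igfbp2 in cluster 4 was at 3.56 per 10000 (3.06 to 4.13) in the KO-labelled library and at 0.56 (0.31 to 0.94) in the WT-labelled library, and in clusters 7 and 11 its intervals overlapped. Fgf10 in cluster 11 went the other way, at 0.43 (0.27 to 0.64) in the KO-labelled and 2.11 (1.52 to 2.84) in the WT-labelled library, while in cluster 0 it was at 0.76 (0.47 to 1.14) and 0.29 (0.20 to 0.40). Fgf7 in cluster 4 was at 1.57 (1.24 to 1.96) and 0.96 (0.61 to 1.43), with intervals that overlap. In cluster 12 it was lower in the KO-labelled library, at 0.30 (0.11 to 0.66) against 2.12 (1.25 to 3.34). These values compare 2 libraries and not 2 genotypes.

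Igf1 differed in several clusters at once. It was at 4.28 (3.74 to 4.87) in KO-labelled and 0.64 (0.34 to 1.09) in WT-labelled nuclei of cluster 11, at 5.23 (4.28 to 6.34) and 0.59 (0.19 to 1.37) in cluster 12, and at 5.59 (4.59 to 6.74) and 0.66 (0.30 to 1.25) in P2ry1 PDGFRA-positive interstitial cell-like nuclei. Macrophage-like nuclei did not follow, at 0.45 (0.22 to 0.84) and 1.15 (0.53 to 2.18), with overlapping intervals. In bulk colon, by comparison, 2 of 3 KO-labelled libraries were below all WT-labelled ones for Igf1 and 1 was above. Igfbp7 was at 26.8 (23.1 to 30.9) in KO-labelled and 6.52 (4.33 to 9.42) in WT-labelled blood endothelium-like nuclei, and at 13.3 (11.7 to 14.99) and 6.70 (5.07 to 8.68) in cluster 12. Igfbp4 in cluster 13 was at 9.97 (7.53 to 12.9) and 2.54 (1.59 to 3.84). Igfbp5, the member with the smallest p in bulk colon, was at 3.26 (2.24 to 4.58) and 0.34 (0.09 to 0.86) in interstitial cell of Cajal-like nuclei, and at 0.32 (0.23 to 0.42) and 0.37 (0.29 to 0.45) over all smooth muscle-like nuclei. Marker levels moved between the libraries too: the summed fibroblast markers stood at 31.5 and 16.5 UMIs per 10000 and the summed macrophage markers at 2.68 and 0.56 in the KO-labelled and the WT-labelled library, and their part in these differences was not tested.

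**Figure D4:**
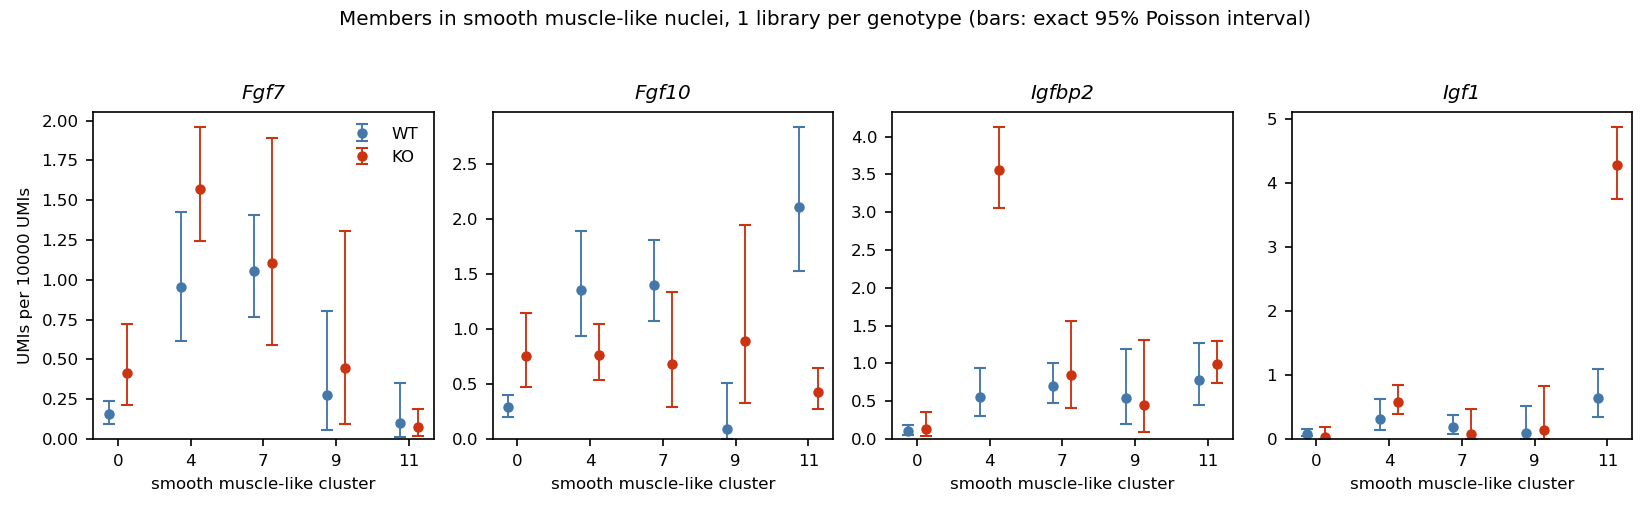
UMIs per 10000 UMIs (vertical axis) of Fgf7, Fgf10, Igfbp2 and Igf1 in the 5 smooth muscle-like clusters (horizontal axis) of the WT-labelled and the KO-labelled colon nuclei library, 1 library each; bars are exact 95% Poisson intervals of counting error. Igfbp2 in cluster 4 (3.56 against 0.56) and Igf1 in cluster 11 (4.28 against 0.64) were higher in the KO-labelled library, and Fgf10 in cluster 11 was lower (0.43 against 2.11).

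Open chromatin was shallow, with a median of 494 and 457 peak counts per nucleus in the WT-labelled and the KO-labelled library, and peaks were listed for each library on its own. In the WT-labelled library 4 of 10 members had a peak within 1000 bp of a RefSeq start (Fgf2, Igfbp4, Igfbp5, Igfbp7), against 41.3% of all genes, and in the KO-labelled library 2 of 10 had one (Igfbp4, Igfbp7), against 35.1%. The share of members was thus near or below that of all genes. The Igfbp4 peak (chr11:99040811-99041949 in the WT-labelled and chr11:99041032-99041901 in the KO-labelled library) and the Igfbp7 peak (chr5:77407363-77408273 and chr5:77407262-77408192) overlap the windows printed above. The Igfbp7 peak held 120 counts in 58 of 2566 WT-labelled nuclei, at 0.64 per 10000 peak counts in smooth muscle-like and 0.44 in other nuclei, and 110 counts in 54 of 1566 KO-labelled nuclei, at 1.22 and 0.58. At this depth the starts of Fgf7, Fgf10 and Igfbp2 had no listed peak, and nothing is drawn from that about the small clusters that hold their RNA.

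Among genes with a mean of at least 1 CPM, those most alike each member over the 12 bulk libraries are given as a description, by Pearson's r of log2 CPM. These libraries share segment, label and tissue content. Fgf10 was most like Sfrp4 (r = 0.98), Hoxd10 (0.96) and Rasl12 (0.96), and Fgf7 most like Ahr (0.95), Scd2 (0.94) and Hoxd11 (0.94). For Igfbp2 they were Eif4e2 (0.93), Tes (0.92) and Rock2 (0.91), and for Igfbp3 Tcirg1 (0.97), Necap2 (0.96) and Mmp2 (0.96). Igf2 was most like Gng2 (0.97), Prkcq (0.96) and Dctn6 (0.96), Igf1 most like Taldo1 (0.94), Banf1 (0.93) and Cfl1 (0.93), and Igfbp4 most like Slco5a1 (0.95), Frem1 (0.93) and Ptgs2os2 (0.93). The values for Fgf2 were 0.91 (Slc7a2), 0.90 (Nt5dc2) and 0.90 (Stx6), those for Igfbp7 0.94 (Rae1), 0.92 (Gnl2) and 0.91 (Eif3b), and those for Igfbp5 0.81 (Alpk2), 0.80 (Adgra1) and 0.78 (Prickle1), so that Igfbp5 had no gene as close as the other members did. Among the members, Fgf7 and Igfbp2 had an r of 0.88 and Fgf7 and Fgf10 of 0.87, while Fgf7 and Igf2 had -0.89 and Igf2 and Igfbp2 -0.85.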

How the data were processed

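RNA of the muscle wall was sequenced in 12 bulk libraries, and RNA and open chromatin were read in nuclei of 2 colon samples. The authors deposited gene counts for all bulk libraries in 1 table, whole numbers that are not normalized, and per the submitters' processing notes used STAR 2.0.4b, featureCounts 1.4.5 of Subread, edgeR and Cell Ranger with the builds GRCm38 and mm10. The deposited nuclei matrices hold counts per gene and counts per peak, and per the file headers came from cellranger-arc 2.0.0. All their gene values were even, and they were divided by 2 before any filter. UMI counts, filters and intervals given here rest on the divided values, and the reason for the even values was not tested. No source used here states a strand setting. Members and gene lists were chosen with earlier results of these data known.

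Of 40757 bulk entries, 276 repeats of an identifier, identical in value, were dropped. Genes were kept by filterByExpr (20886 genes), scaled by TMM and tested with edgeR 4.0.16 (glmQLFit, robust, 4 group means over all 12 libraries), with p adjusted by Benjamini-Hochberg over all genes and a threshold of 0.05. The fit was tested on simulated counts of the real genes with known changes. DESeq2 1.42.0 and limma 3.58.1 were alternatives. All 10 members are named; a member is given library by library where groups do not overlap, its unadjusted p is below 0.05 between genotype labels, or it passes the threshold. Pathway genes are named where they pass the threshold or have 1 of the 3 smallest p in a segment.

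Nuclei with at least 500 UMIs and 300 genes and at most 5% mitochondrial UMIs were kept, likely doublets were removed at a rate of 0.8% per 1000 barcodes, and 2000 variable genes without the members, 30 principal components and 20 neighbours gave clusters by Leiden (resolution 1.5). A cluster was named by the marker list with the highest mean fold among lists with at least 3 markers raised 2-fold in at least 5% of its nuclei; the naming rule was set after seeing the data. The number of peaks listed was 35003 for the WT-labelled and 26493 for the KO-labelled library. Samples share tags across segments, but same-tag deviations from the group means correlated between -0.163 and 0.1, so tags were not treated as pairs.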

Additional observations from a re-analysis of the deposited data

Results flagged for a closer look

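The change of Igfbp5 between KO-labelled and WT-labelled libraries differed between the segments by a test of the difference in 1 of the tools run. The change in colon minus that in jejunum was 2.37 on the log2 scale by edgeR (SE 0.55, adjusted p = 0.911), and DESeq2 gave 2.38 with an adjusted p of 0.0227. Limma voom gave 2.33 with an adjusted p of 0.983. Igfbp5 was higher in 3 of 3 KO-labelled colon libraries than in any WT-labelled colon library, and 2 of 3 KO-labelled jejunum libraries were below all WT-labelled jejunum libraries.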

How the results depend on the processing

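Of 40 log2 fold changes of members over 21 alternatives, 25 kept their sign and 15 changed it. DESeq2 called 960 genes in colon, 805 in jejunum, 37 for the difference between segments and 1160 between the WT-labelled segments, and 1, 0, 1 and 4 members. Limma voom called 76 genes in jejunum, and 351 genes with 2 members between segments; with the replicate block on genotype and tag it called 77, and 250 with 2. EdgeR with the replicate block called 29 genes and 0 members between segments, where Igf2 had an adjusted p of 0.202. Fits to 1 segment called 0 genes in colon and 21 in jejunum. Without both KO-labelled colon t4 and KO-labelled jejunum m1, an alternative chosen after seeing the data, 309, 145 and 1056 genes were called in colon, in jejunum and between segments, with 5 members in the last. Leaving out 1 library at a time gave 7 to 180 genes in colon, 2 to 172 in jejunum, 0 to 1 for the difference and 79 to 557 between segments, with 0 to 3 members in the last; the group concerned then held 2 libraries.

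Signs turned as follows. In colon, without both libraries, Fgf7 was -0.49, Igf1 -0.95, Igfbp2 -2.01 and Igfbp4 -0.50; by voom Igf1 was -0.22, Igfbp2 -1.05 and Igfbp4 -0.05, and with the replicate block -0.22, -0.98 and -0.06. In jejunum, without both libraries, Fgf7 was -0.94 and Fgf10 -1.85; Fgf7 was -0.31 by voom and -0.20 with the block, and Fgf2 0.01 with the block. For the difference, without both libraries, Fgf10 was 1.02, Igfbp3 0.12 and Igfbp7 0.04. Between segments, Igf1 was 0.04 by voom and with its block and 0.02 by edgeR with the block. Leaving out 1 library, ranges in colon were -0.51 to 0.97 for Fgf7, -0.96 to 0.66 for Igf1, -0.20 to 0.43 for Igf2, -2.03 to 0.68 for Igfbp2 and -0.52 to 0.43 for Igfbp4. In jejunum they were -0.11 to 0.08 for Fgf2, -0.94 to 0.72 for Fgf7 and -1.86 to 1.96 for Fgf10. For the difference they were -0.83 to 1.47 for Fgf7, -2.89 to 0.93 for Fgf10, -1.83 to 0.20 for Igf1, -0.78 to 0.66 for Igfbp3, -0.02 to 0.94 for Igfbp4 and -0.23 to 0.11 for Igfbp7, and between segments -0.39 to 0.07 for Igf1. Apart from fewer samples in a fit, the cause was not tested. Same-tag libraries did not deviate together, and why fewer genes were called between segments with the block was not tested. In nuclei, few UMIs per cluster limit Igf2 and Igfbp3 most.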
